A study of Mus musculus with 12 samples.

Results

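Levels of 10 growth factor and receptor genes with known roles in tissue repair were followed in the mouse cecum from a sham operation to 72 h after cauterization. The genes were the EGF family ligands Hbegf, Areg, Ereg, Tgfa, Btc and Epgn, their receptor Egfr, the ligand Hgf with its receptor Met, and the ligand Fgf7. They were chosen by name, as every non-control spot whose gene name was among the 10, and they were measured by 20 of the 56605 probes and counted as 10 of the 37074 genes on the array. Cecum RNA of C57BL/6 mice was hybridised to 12 one-colour arrays in 4 groups of 3 biological triplicates. The groups were sham-operated mice and wild-type mice sampled 3 h, 12 h and finally 72 h from bipolar cauterization of the cecum under pentobarbital anaesthesia, a procedure that leads to peritoneal adhesions. The sham tissue was taken directly after the operation, so that the effects of surgery, anaesthesia and time of day cannot be told apart from that of cauterization. The labels give no age and call all animals male.

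Ligands of the EGF family are made as membrane-anchored precursors, are cut loose by metalloproteases and bind EGFR, a receptor tyrosine kinase of epithelial and stromal cells that drives proliferation and migration at wound edges. HGF is secreted, mainly by stromal cells, as an inactive precursor that serine proteases cleave, and its receptor MET lies on epithelial cells. FGF7, or keratinocyte growth factor, is likewise made by fibroblasts and acts on epithelial cells that carry a splice form of FGFR2. In the intestine these pathways are known for crypt growth and for closing the epithelium after injury.

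The probes set what could be seen of each gene, so 4 of them are shown, 2 of which belong to genes whose probes did not give the same result. Their place in the coding sequence was not checked against an annotation. Each is 60 bases, written 5′ to 3′ in the sense of the transcript and in lower case throughout since no base in them is singled out. Each has at least 1 reading frame without a stop codon. In mm9, the build of the array files, the Areg probe lies at chr5:91570090-91570149 on the plus strand and begins at base 426 of its transcript. The Epgn probe lies at chr5:91461324-91461383 on the plus strand, beginning at base 348. The Met probe shown here lies at chr6:17442312-17442371 on the plus strand, beginning at base 1426, while the brighter Met probe lies far downstream, at base 6436 of the same transcript. The Egfr probe lies at chr11:16783545-16783604 on the plus strand, beginning at base 2088.
Areg: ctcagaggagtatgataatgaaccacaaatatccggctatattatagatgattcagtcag
Epgn: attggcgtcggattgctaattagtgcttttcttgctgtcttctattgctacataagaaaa
Met: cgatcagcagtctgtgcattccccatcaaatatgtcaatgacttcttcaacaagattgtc
Egfr: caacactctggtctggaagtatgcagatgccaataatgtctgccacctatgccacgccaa

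All values are log2 processed signals relative to the 75th percentile of the array, so 0 is the level of that percentile and a difference of 1 is a 2-fold change. Changes beyond 2-fold whose adjusted p in limma was under 0.05 were called. The probe with the highest mean stood for its gene. Per array, 60.2% to 65.2% of probes stood well above background. Xist, the transcript of the inactive X chromosome, did so on 12 of 12 arrays, whereas the Y-linked genes Ddx3y and Eif2s3y did on 0 and Uty on 1. These 4 genes go against the label of male animals in every group alike. The Y-linked Kdm5d did so on 12 arrays, which goes with the label, and the conflict was not resolved. The sham and 3 h arrays and 12 h replicates 1 and 2 were on slide 1, and 12 h replicate 3 and all 72 h arrays were on slide 2, so a difference between the slides could be separated from 72 h only through 1 array. All 11 epithelial markers, among them Cdx2 and Krt20, were above background on at least 1 array. In whole tissue, fewer cells of a type and less RNA per cell cannot be told apart.

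At 3 h, 6 of the 10 genes had risen from sham, namely Areg, Btc, Ereg, Hbegf, Epgn and Met, and 0 had fallen, against 7.37% of all genes called (3.26% higher, 4.11% lower). The same 6 genes were called higher at 12 h, when 9.06% of all genes were called (4.1% higher, 4.96% lower). At 72 h, 2 were called, Ereg higher and Tgfa lower, against 8.85% of all genes (4.55% higher, 4.3% lower). The median log2 difference of the 10 genes from sham reached 1.37 at 3 h, 1.24 at 12 h and 0.47 at 72 h, beside 0.08, -0.0077 and -0.14 over all genes. The arrays of the groups did not overlap for 8 of the 10 at 3 h, 8 at 12 h and 6 at 72 h, where 46.6%, 36.2% and 37.5% of all genes did not overlap. Within slide 1 alone the count was again 6 at 3 h and 6 at 12 h, for the same genes, against 7.24% and 9.49% of all genes.

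**Figure D1:**
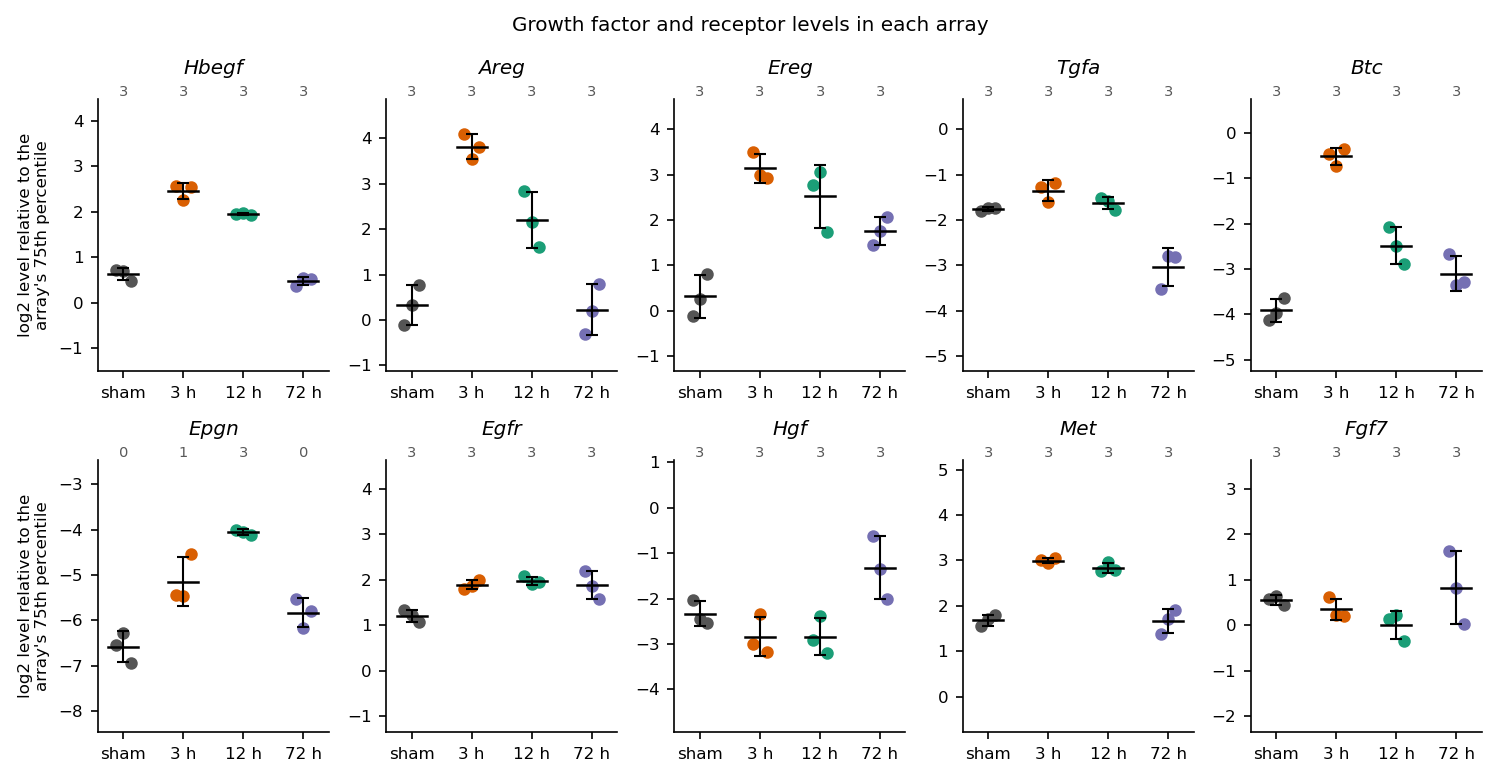
Log2 level of each of the 10 genes relative to the array's 75th percentile, by the probe with the highest mean, in sham, 3 h, 12 h and 72 h. Points are arrays, the long bar is the mean of 3, the error bar is the SD, and the grey number above each group counts its arrays well above background; all panels span the same range of log2 units. Areg stood between 3.55 and 4.09 on the 3 h arrays and between -0.12 and 0.78 on the sham arrays, while Epgn was above background on 0 sham arrays.

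Areg encodes amphiregulin, a soluble low-affinity EGFR ligand of epithelial and immune cells. Its level was -0.12, 0.33 and 0.78 in sham, 4.09, 3.55 and 3.81 at 3 h, 2.84, 2.16 and 1.62 at 12 h, then -0.32, 0.19 and 0.80 at 72 h. Every 3 h array lay above every 12 h array, every 12 h array lay above every sham array, and the 72 h and sham arrays covered the same range. The 3 h mean was 11.2-fold above sham, a log2 difference of 3.49 ± 0.36 (SE, n = 3 per group, limma adjusted p = 0.00025). At 12 h it was 3.66-fold above sham (limma adjusted p = 0.00505), and at 72 h the difference was -0.11 with a 95% interval from -0.92 to 0.70. The step down from 3 h to 12 h was called at -1.61 ± 0.36 (limma adjusted p = 0.0249), but leaving out any 3 h array, or 12 h replicate 2 or 3, took it to adjusted p from 0.0523 to 0.0814 in limma.

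Btc encodes betacellulin, which binds both EGFR and ERBB4. Its levels were -4.13, -3.97 and -3.64 in sham, -0.48, -0.73 and -0.36 at 3 h, -2.08, -2.49 and -2.90 at 12 h, then -2.67, -3.35 and -3.29 at 72 h. The 3 h arrays stood apart from all others, and the 12 h and 72 h arrays overlapped each other but not sham. Btc was 10.5-fold above sham at 3 h (log2 difference 3.39 ± 0.24 SE, limma adjusted p = 3.3e-05) and 2.68-fold at 12 h (limma adjusted p = 0.00265). At 72 h it was 1.75-fold above sham, with limma adjusted p = 0.0423 but under the 2-fold threshold. The fall from 3 h to 12 h was 1.97 on the log2 scale in size (limma adjusted p = 0.00211). The other Btc probe was well above background on 1 array at 3 h and 1 at 12 h and was called in no comparison. With the mean of both probes the 12 h call was lost (log2 difference 1.15, limma adjusted p = 0.237).

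Ereg encodes epiregulin, a ligand of EGFR and ERBB4. Its levels were -0.12, 0.25 and 0.82 in sham, 3.51, 2.99 and 2.93 at 3 h, 2.78, 3.05 and 1.73 at 12 h, then 1.46, 1.77 and 2.07 at 72 h. All arrays of the 3 later groups lay above all sham arrays, and neighbouring groups among those 3 overlapped. Ereg was 7.08-fold above sham at 3 h (log2 difference 2.82 ± 0.35 SE, limma adjusted p = 0.000649), 4.6-fold at 12 h (limma adjusted p = 0.00182) and 2.72-fold at 72 h (1.45 ± 0.35, limma adjusted p = 0.0174). It was the only one of the 10 genes called higher than sham at all 3 times. The 72 h call was lost without sham replicate 1 (1.23, limma adjusted p = 0.0659), sham replicate 2 (1.41, 0.056) or 72 h replicate 3 (1.30, 0.0581). From 3 h to 72 h it fell by 1.38 (limma adjusted p = 0.0154), a call lost without 72 h replicate 1 (adjusted p = 0.0591), while with slide as a block the difference was -0.19 (adjusted p = 0.842).

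Hbegf encodes heparin-binding EGF-like growth factor, an early ligand of wound edges. Its levels were 0.71, 0.69 and 0.47 in sham, 2.56, 2.26 and 2.54 at 3 h, 1.95, 1.98 and 1.94 at 12 h, then 0.36, 0.54 and 0.52 at 72 h. The 3 h arrays lay above the 12 h arrays, both lay above sham, and the 72 h and sham arrays overlapped. Hbegf was 3.56-fold above sham at 3 h (1.83 ± 0.12 SE, limma adjusted p = 1.78e-05) and 2.52-fold at 12 h (1.33 ± 0.12, limma adjusted p = 6.34e-05). By 72 h the difference from sham was -0.15 (95% interval from -0.41 to 0.11). The other Hbegf probe moved with it (Pearson r = 0.94 over the 12 arrays) but was above background on 2 arrays, both at 3 h, and its 3 h level was at least 1.21-fold above sham (limma adjusted p = 0.00287).

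Epgn encodes epigen, the dimmest of the ligands by its own background test. None of its sham or 72 h arrays rose well above background (0 of 3 each), whereas 1 did at 3 h and 3 did at 12 h. Measured levels were -6.53, -6.27 and -6.94 in sham, -5.45, -5.46 and -4.53 at 3 h, -4.00, -4.05 and -4.12 at 12 h, then -5.52, -6.16 and -5.80 at 72 h. The 12 h arrays lay above all others. There Epgn was at least 1.95-fold above sham (limma adjusted p = 0.000191) and at least 2.11-fold above 72 h (limma adjusted p = 0.00216). At 3 h it passed the test (limma adjusted p = 0.00539), but with 1 array above background no fold is given. Where the other 5 genes that rose had their highest mean at 3 h, Epgn had it at 12 h, with a difference from 3 h of at least 1.52-fold (limma adjusted p = 0.0352). That step lost its call in 14 of 25 alternatives, among them leaving out 3 h replicate 1 or 2, any 12 h array, sham replicate 1 or 72 h replicate 3 (limma adjusted p from 0.0501 to 0.122). Normexp background correction brought it to 0.0040 on the log2 scale and the 12 h difference from sham to 0.18. That setting added an offset of 50 to each intensity, which shrinks the differences of a probe this dim, so it cannot test them.

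Tgfa encodes transforming growth factor alpha, the ligand that resting intestinal epithelium is known to make. Its brighter probe read -1.80, -1.74 and -1.73 in sham, -1.27, -1.61 and -1.18 at 3 h, -1.51, -1.57 and -1.78 at 12 h, then -3.52, -2.79 and -2.81 at 72 h. The 72 h arrays lay below all others. Tgfa was 2.44-fold lower than sham at 72 h (-1.28 ± 0.20 SE, limma adjusted p = 0.0018) and 2.68-fold lower than at 12 h (limma adjusted p = 0.00133). Its differences at 3 h and 12 h were 0.41 and 0.14 (limma adjusted p = 0.172 and 0.72). The other probe, designed to an Ensembl transcript, was also 2.43-fold lower at 72 h (limma adjusted p = 0.000605), yet read 0.65 lower already at 3 h and 0.90 lower at 12 h (limma adjusted p = 0.0187 and 0.00303, both under 2-fold), so the probes took opposite signs at 3 h and 12 h. Against 12 h this probe differed at 72 h by -0.38 (limma adjusted p = 0.135), and the mean of both probes lost that call at -0.90. With slide as a block the 72 h difference was -1.05 and the call was lost (limma adjusted p = 0.159). The epithelial marker sum, on the linear scale relative to the 75th percentile, ran from 1641 to 1850 in sham and from 995 to 1364 at 72 h, with 1 of 11 markers called lower there (Cdx2, -1.01) and 0 higher. Its part in the fall of Tgfa was not tested.

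**Figure D2:**
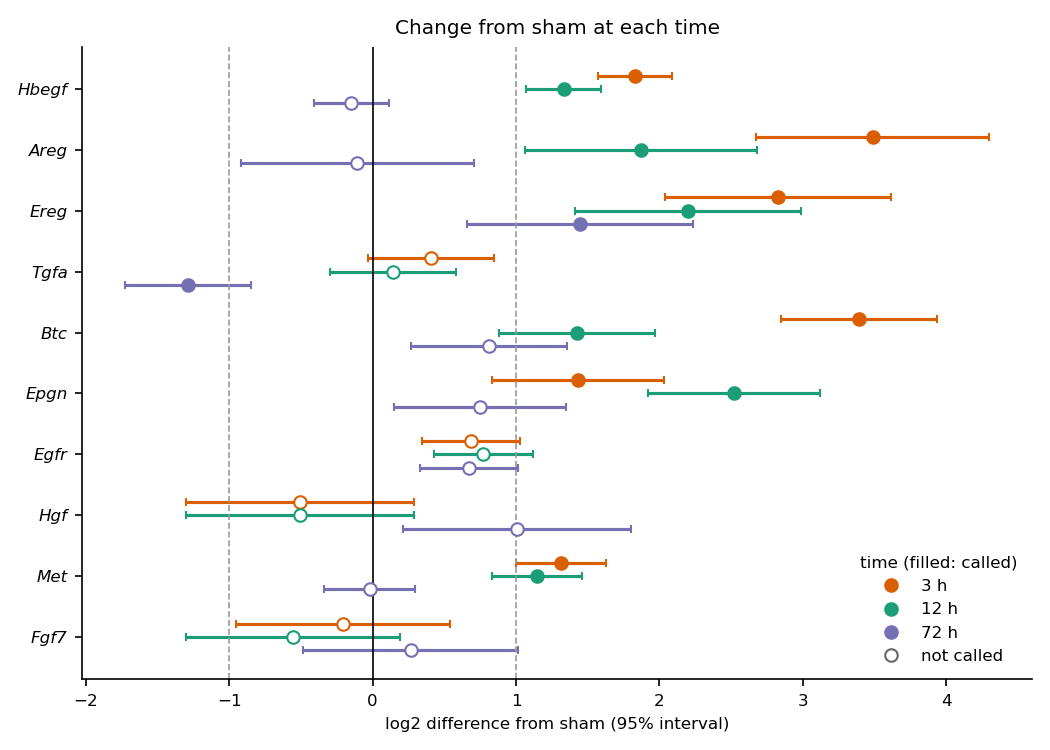
Log2 difference from sham of each gene at each of the 3 times, with 95% intervals from limma (3 arrays per group). Filled points were called and open points were not, and dashed lines mark 2-fold. Of the 6 genes filled at 3 h and 12 h, 1 (Ereg) is filled at 72 h, where Tgfa is the gene filled on the lower side.

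Areg, Ereg, Epgn and Btc lie side by side on chromosome 5, next to the CXC chemokine genes, in the order Cxcl2, Mthfd2l, Epgn, Ereg, Areg, Btc, Parm1 by the RefSeq annotation. In mm9 their probes span 325.8 kb, with 61.2 kb from the Epgn to the Ereg probe, 47.5 kb from Ereg to Areg and 217.0 kb from Areg to Btc. All 4 were called higher at 3 h and at 12 h. The genes on either side were not called at any time: Mthfd2l, a mitochondrial folate enzyme, differed from sham by 0.46, 0.48 and 0.22 at the 3 times in order, and Parm1 by 0.41, 0.04 and -0.44. Beyond Mthfd2l, the neutrophil attractant Cxcl2 was at least 295-fold above sham at 3 h, at least 927-fold at 12 h and at least 278-fold at 72 h.

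**Figure D3:**
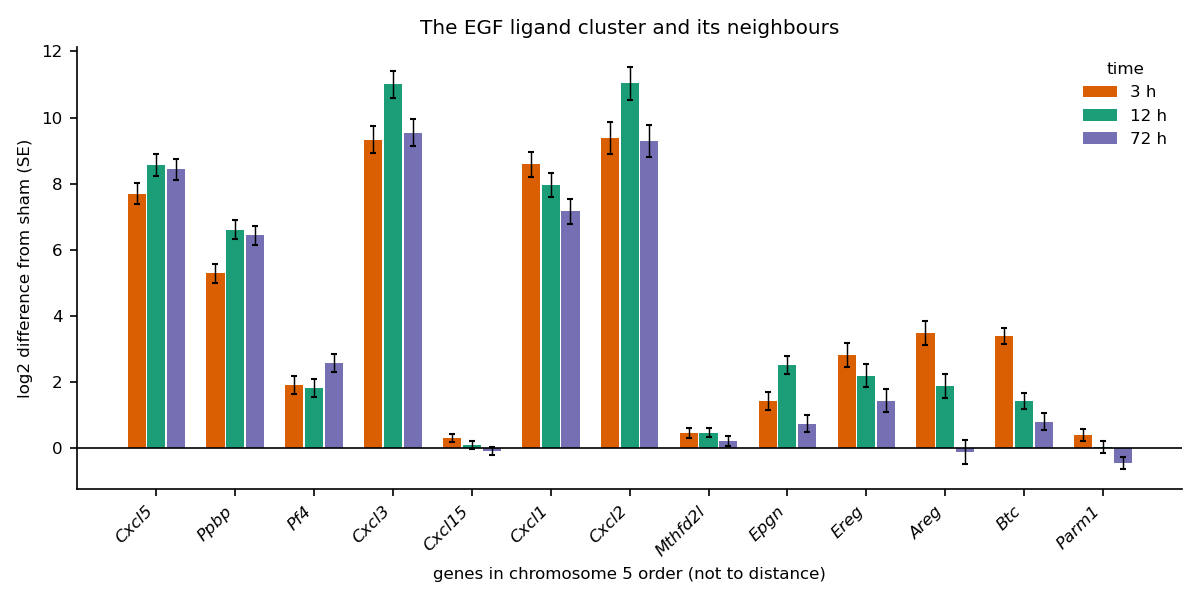
Log2 difference from sham at each of the 3 times for 13 genes in their order along chromosome 5, evenly spaced and not to distance, with the SE from limma. Ppbp, Cxcl3, Cxcl2 and Epgn were below background on all sham arrays, so their bars depend on that floor, and Cxcl15 was so on all 12 arrays. The 4 EGF ligand genes Epgn, Ereg, Areg and Btc form a run between Mthfd2l and Parm1, whose bars stay under 0.5.

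RefSeq promoter sequences (GRCm38.p6, 250 bases before to 50 after each start) matched 8 of the 10 genes in 9 windows, and Ereg and Hbegf were not among them. The sequence of Areg, the gene with the greatest rise, is shown for the last 100 bases before its start, chr5:91139499-91139598 in GRCm38.p6 on the plus strand.
Areg promoter: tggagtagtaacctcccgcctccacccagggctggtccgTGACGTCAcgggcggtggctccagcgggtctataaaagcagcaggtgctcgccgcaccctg
The capitals mark the full cyclic AMP response element, TGACGTCA, 61 to 54 bases before the start. This motif is its own reverse complement, and 1.55% of all 32851 windows held it in the 250 bases before the start. Among the 9 windows of these genes it was found in 1, that of Areg. The TATAAA motif stood 31 to 26 bases before the Areg start and was found on either strand in 2 of the 9 windows (Areg and Epgn) and in 12.4% of all windows.

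Egfr, the receptor of all 6 ligands, was higher than sham at each time but under the 2-fold threshold. The brightest probe read 1.33, 1.22 and 1.07 in sham, 1.80, 1.87 and 2.0 at 3 h, 2.08, 1.91 and 1.95 at 12 h, then 2.20, 1.86 and 1.58 at 72 h. No array of the 3 later groups reached down to sham, and those groups overlapped each other. In the order of the times, the differences from sham were 0.68, 0.77 and 0.67 (SE 0.15 each, limma adjusted p = 0.0125, 0.00575 and 0.0127), which is 1.61-fold, 1.71-fold and 1.6-fold. The probe at base 4235 of the same transcript gave 0.70, 0.80 and 0.74. The Egfr probe shown above gave 0.39, 0.31 and 0.70, with limma adjusted p = 0.127 and 0.23 at 3 h and 12 h and 0.0153 at 72 h. The probe for another Egfr transcript was above background on 8 of 12 arrays and differed by 0.21, -0.03 and 0.45, within its error at every time.

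Met rose with the EGF ligands. Its brighter probe read 1.55, 1.70 and 1.79 in sham, 3.00, 2.94 and 3.05 at 3 h, 2.75, 2.95 and 2.78 at 12 h, then 1.37, 1.70 and 1.91 at 72 h. The 3 h and 12 h arrays overlapped each other and lay above all sham and 72 h arrays. Met was 2.48-fold above sham at 3 h (1.31 ± 0.14 SE, limma adjusted p = 0.000296), 2.21-fold at 12 h (1.15 ± 0.14, limma adjusted p = 0.000418) and differed from sham by -0.02 at 72 h (95% interval from -0.34 to 0.29). The Met probe shown above correlated with the brighter one (Pearson r = 0.84 over the 12 arrays) but rose less, by 0.55 at 3 h (limma adjusted p = 0.0428, under 2-fold) and by a difference of 0.30 at 12 h (limma adjusted p = 0.246). With the mean of both probes the Met differences were 0.93 at 3 h and 0.72 at 12 h, under 2-fold.

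Hgf, the ligand of Met, had its highest mean at 72 h. Its brightest probe read -2.02, -2.44 and -2.53 in sham, -2.99, -2.34 and -3.17 at 3 h, -2.92, -2.39 and -3.21 at 12 h, then -0.62, -1.34 and -2.01 at 72 h. The 72 h arrays spread widely, with replicate 1 highest and replicate 3 within 0.02 of the highest sham array. Against 12 h, Hgf at 72 h was 2.86-fold higher (1.51 ± 0.36 SE, limma adjusted p = 0.0165), and against 3 h 2.85-fold (limma adjusted p = 0.0103). Against sham the difference was 1.01 ± 0.36 and did not pass (limma adjusted p = 0.0753), while without 72 h replicate 3 it was 1.35 and passed (0.025). The call against 12 h was lost without 72 h replicate 1 (limma adjusted p = 0.0531) or 12 h replicate 1 (0.0533), and with slide as a block (0.0757). With slide as a block the call against 3 h was lost too (limma adjusted p = 0.0905).

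The Hgf probe for the main RefSeq transcript read -3.03, -3.10 and -2.77 in sham, -2.09, -2.80 and -2.76 at 3 h, -3.29, -2.13 and -3.62 at 12 h, then -1.34, -1.59 and -1.97 at 72 h. The brightest probe is for another Hgf transcript. On the probe for the main transcript all 72 h arrays lay above all others. There the difference from sham was called at 2.53-fold (1.34 ± 0.35 SE, limma adjusted p = 0.0242). Against 12 h it was called at 1.38 (limma adjusted p = 0.0233), but against 3 h it was 0.92 and not called (limma adjusted p = 0.0639). The third probe was 0.31 above sham at 72 h (limma adjusted p = 0.596), and the fourth was above background on 0 arrays.

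**Figure D4:**
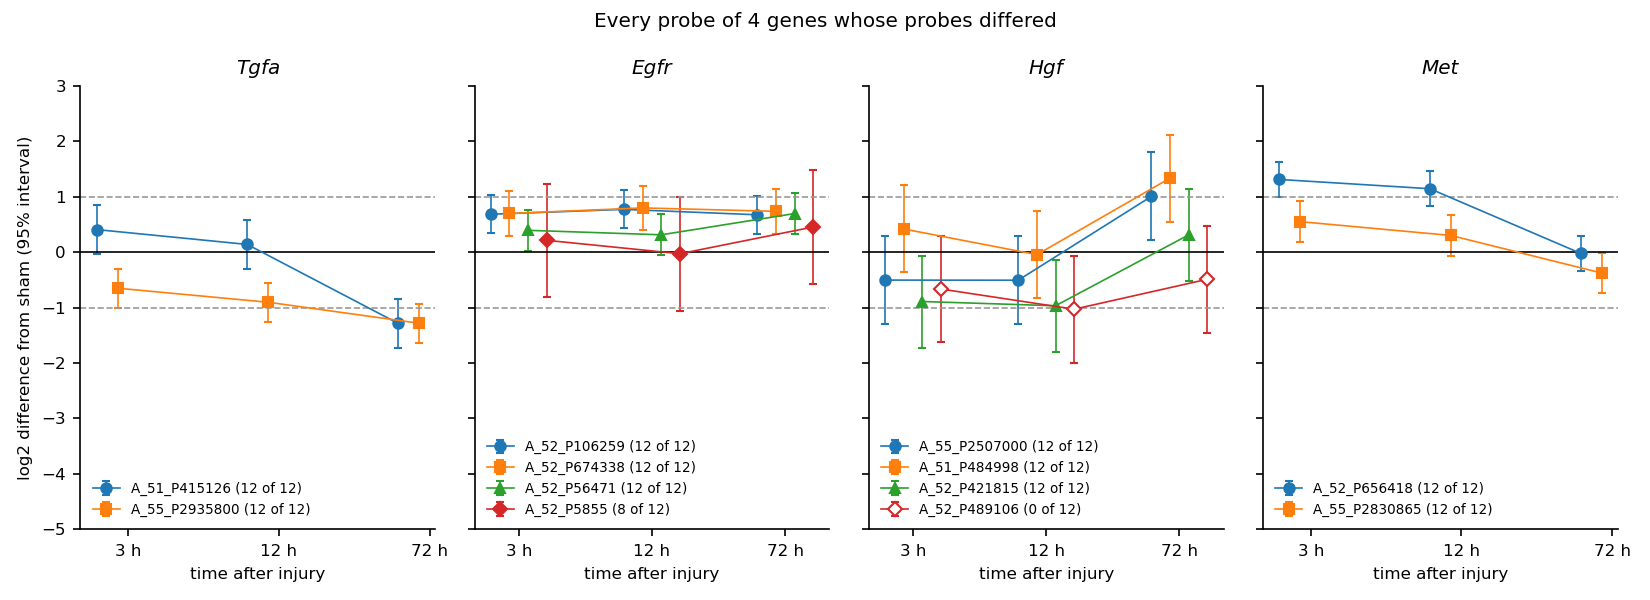
Log2 difference from sham at each of the 3 times for every probe of Tgfa, Egfr, Hgf and Met, with 95% intervals from limma. The legend counts the arrays, of 12, on which each probe was well above background, open symbols mark a probe above background on 0, and dashed lines mark 2-fold. The Tgfa probes took opposite signs at 3 h and 12 h but both stood near -1.28 at 72 h. The brighter Met probe stood above the other at each time, at 1.31 against 0.55 at 3 h and -0.02 against -0.38 at 72 h.

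Fgf7 was measured by 1 probe and was called at no time. Its levels were 0.59, 0.65 and 0.44 in sham, 0.62, 0.23 and 0.21 at 3 h, 0.13, 0.23 and -0.35 at 12 h, then 1.63, 0.81 and 0.02 at 72 h. The 72 h arrays spread over 0.02 to 1.63, overlapping every other group, and those of 12 h lay below all sham arrays. The differences from sham were -0.21, -0.56 and 0.27 with SE 0.34 each, and their 95% intervals reached from -0.95 to 0.54, from -1.30 to 0.19 and from -0.48 to 1.01. Without 72 h replicate 3, Fgf7 at 72 h was called against 12 h (1.22, limma adjusted p = 0.0143), where with all arrays the difference was 0.82 (limma adjusted p = 0.124).

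At 72 h, Hgf and Fgf7 had the same order of replicates, 1 above 2 above 3. So had Egfr, and so had the fibroblast, fat cell, endothelial, mesothelial and mast cell marker sums. Areg, Ereg and Met had the reverse order, and so had the epithelial, smooth muscle and T and B cell sums. The others of the 10 genes and the other marker sums had neither. The summed level of 10 fibroblast markers, on the linear scale relative to the 75th percentile, was 970, 649 and 435 in 72 h replicates 1 to 3, against 173 to 187 in sham, with 6 of the 10 called higher and 0 lower (Col1a1 3.00, Col3a1 2.08 and Col1a2 2.02 on the log2 scale). The sum of 7 fat cell markers was 259, 111 and 8.65 in the same replicates, against 24.0 to 51.4 in sham, and 0 of the 7 were called. The sum of 7 endothelial markers was 61.0, 39.7 and 25.7, against 19.1 to 19.6 in sham, with 3 of 7 called higher (Cdh5 1.76, Egfl7 1.37 and Emcn 1.09). Before 72 h the fibroblast sum was below sham, from 116 to 139 at 3 h and from 102 to 110 at 12 h. Of its 10 markers, 0 were called lower than sham at 3 h and 5 at 12 h. At 72 h, 7 were called higher than at 12 h and 9 higher than at 3 h. The part of these cells in the values of the 10 genes was not tested.

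Markers of myeloid blood cells also rose. The sum of 11 neutrophil markers rose from 81.3 to 92.5 in sham arrays to 360 to 600 (3 h) and 825 to 865 (12 h), and covered 351 to 642 at 72 h, so that it was highest at 12 h. Of these markers 7 were called higher at 3 h and 10 at 12 h. The sum of 11 epithelial markers covered 2302 to 2493 at 3 h and, at 12 h, 1784 to 2117, with Krt18 called higher at 3 h (1.17) and 0 called at 12 h. The sum of 9 macrophage and monocyte markers ran from 135 to 184 in sham, then 244 to 384, 335 to 379 and 388 to 427 at the successive times, and 1, 4 and 8 of them were called higher. Of the 9 mast cell markers, 1 was called higher at 3 h and 3 at 72 h, led by Cma1 (3.17 at 72 h), and of the 7 markers of type 2 innate lymphoid cells, which are also known to make amphiregulin, 1 was called higher at 3 h (Il1rl1, 2.16) and 0 at the other times. Of 8 mesothelial markers measured, Upk3b, Lrrn4 and Gpm6a were called lower at 3 h and 12 h while Pdpn was called higher, and 4 were called higher at 72 h, led by Wt1 (4.40). Of 8 smooth muscle markers 1, 8 and 7 were called lower at the successive times, and of 10 T and B cell markers 0 were called. The part of these cells in the ligand values was not tested.

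Between the times, the 10 genes moved mostly downward. From 3 h to 12 h, 3 were called, Areg and Btc lower and Epgn higher, against 3.46% of all genes (1.89% higher, 1.56% lower). From 12 h to 72 h, 6 were called against 7.52% of all genes (4.33% higher, 3.19% lower), with Hbegf (-1.48), Areg (-1.98), Tgfa, Epgn and Met (-1.17) lower and Hgf higher. From 3 h to 72 h, 7 were called against 11.7% of all genes (6.19% higher, 5.51% lower), with Hbegf (-1.98), Areg (-3.59), Ereg, Tgfa, Btc (-2.58) and Met (-1.33) lower and Hgf higher. Slide 2 held all 72 h arrays and a single 12 h array. Within it the same 6 differences from 12 h to 72 h were -1.46, -1.39, -1.27, -1.70, -1.11 and 1.88 for Hbegf, Areg, Tgfa, Epgn, Met and Hgf. A single 12 h array is too few to test them there.

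Other genes of the same pathways were counted from fixed lists without the 10 genes, to be read against the 3.26%, 4.1% and 4.55% of all genes called higher and the 4.11%, 4.96% and 4.3% called lower at the successive times. Of the 5 other EGF family ligands measured, 0 were called higher at any time, and Nrg2, a neuregulin ligand of ERBB3 and ERBB4, fell by 1.81, 1.64 and 1.21 in that order of times (limma adjusted p = 0.000252, 0.00028 and 0.00194). Egf itself fell at 12 h, by 1.30 (limma adjusted p = 7e-04), and differed from sham by -0.22 and -0.54 at 3 h and 72 h. Nrg1 was not called, with means of 0.90 in sham, then 1.75, 1.35 and 0.91 at the successive times. Nrg3 was above background on 0 arrays. The median of these 5 ligands was -0.22, -0.30 and -0.18 at the successive times. Of the other 3 ErbB receptors 0 were called, with Erbb2 at -0.71, -0.26 and -0.56.

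Among 8 genes that release EGF ligands from the membrane or restrain that release, 1 was called higher at each time, a different gene each time, with medians of 0.21, 0.36 and 0.41. Timp3, an inhibitor of the sheddase ADAM17, rose at 3 h (1.16, limma adjusted p = 0.000654), Rhbdf2, the inactive rhomboid that guides ADAM17 to the cell surface, rose at 12 h (1.40, limma adjusted p = 0.000196), and the metalloprotease Adam12 rose at 72 h (1.95, limma adjusted p = 0.0109). Adam17 differed from sham by 0.02, 0.73 and 0.45 and was not called.

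Among 16 feedback inhibitors of EGFR and of the ERK pathway below it, the genes called higher numbered 3, 3 and 2 at the successive times and those called lower 0, 1 and 0, with medians of 0.25, 0.22 and 0.23. Spry4, a Sprouty inhibitor, rose at all 3 times (1.98, 1.73 and 1.40, limma adjusted p = 1.18e-05, 1.69e-05 and 6.68e-05). Errfi1, which binds and blocks the EGFR kinase, rose by 1.95 at 3 h and 1.25 at 12 h (limma adjusted p = 0.000202 and 0.00154) and stood at 0.41 at 72 h (0.183). The ERK phosphatase Dusp5 rose by 1.46 and 2.15 at 3 h and 12 h (limma adjusted p = 0.000355 and 2.71e-05), Dusp4 rose at 72 h (1.11, limma adjusted p = 0.0114), and Lrig3 fell at 12 h by 1.08 (limma adjusted p = 0.000545).

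In the list of HGF activation and MET signalling, 3 of 14 other genes were higher at 3 h and 2 at each later time, and 0 were lower, with medians of 0.39, 0.23 and 0.20. Plaur, the urokinase receptor, rose by 4.14, 4.83 and 3.46 (limma adjusted p = 0.000132, 3.65e-05 and 0.000323). Mst1r, a receptor of the MET family that binds macrophage-stimulating protein, rose by 1.30 and 1.37 at 3 h and 12 h (limma adjusted p = 4.6e-05 and 2.23e-05), close to the values of Met. Plat, the tissue plasminogen activator, rose by 1.41 at 3 h and 2.12 at 72 h (limma adjusted p = 0.00266 and 0.000299).

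In the list of the FGF7 subfamily, its receptors and cofactors, 13 other genes gave medians of -0.54, -0.91 and -0.25, and those called higher numbered 2, 0 and 2 at the successive times against 1, 5 and 2 called lower. Fgfbp1, a carrier that frees FGF7 from the matrix, fell by 1.09 at 12 h and 1.63 at 72 h (limma adjusted p = 0.00199 and 0.000292). Fgfr3 fell at 3 h and 12 h by 1.04 and 1.23, and Fgfrl1 and Fgfbp3 fell at 12 h by 1.21 and 1.23. Fgf22 was called lower at 12 h and 72 h but was above background on 0 arrays. Fgfr4 and Flrt3 were higher at 3 h (1.24 and 1.12), and Fgfr1 and Flrt2 at 72 h (1.11 and 1.88). The receptor gene of FGF7 itself, Fgfr2, differed by -0.54, -0.91 and -0.81 and was not called.

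Growth factor immediate early genes, which EGFR and MET but also many other stimuli switch on, were higher for 14 of 18 at 3 h and for 9 at each later time, with 0 lower at any time and medians of 1.59, 0.99 and 0.86. Fosl1, a partner of JUN in AP-1, was below background on all sham arrays and was at least 47.8-fold above sham at 3 h, at least 18.6-fold at 12 h and at least 7.59-fold at 72 h (limma adjusted p = 4.01e-06, 8.55e-06 and 6.19e-05). Dusp1, a MAP kinase phosphatase, rose by 3.79, 3.80 and 2.51, and Ier3 by 2.75, 3.15 and 2.45. The small MAF factor Maff rose by 3.00, 2.13 and 1.19.

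**Figure D5:**
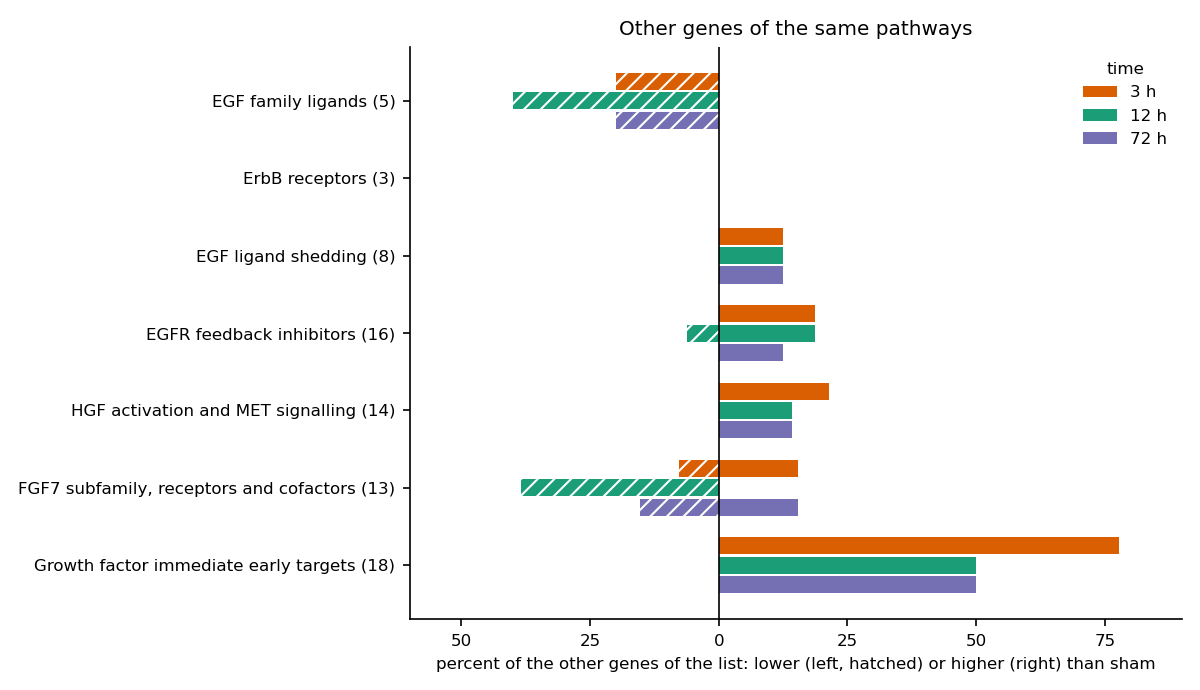
Share of the other genes of each pathway list, the 10 genes left out, that were called higher (right) or lower (left, hatched) than sham at each time, with the number of genes measured in brackets. The longest bars are those of the growth factor immediate early genes, 14 of 18 at 3 h, and the other EGF family ligands appear on the lower side alone.

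Over the 12 arrays, which share their groups and slides, the level of Hbegf correlated with that of Met at Pearson r = 0.97 and with that of Areg at 0.95, and Areg with Btc at 0.91. Hgf ran against Tgfa at -0.90 and with Fgf7 at 0.78. Among 16000 named genes above background on at least 3 arrays, the genes most like Hbegf were Bcar3, Mctp2 and Ifngr1 (r = 0.99, 0.98 and 0.98), and those most like Met were Ptp4a1, Zdhhc13 and Smad2 (0.99 each). Areg was most like Ippk, Dcaf13 and Fam84b (0.98 each), and Btc most like Arl5b, Zfp593 and the immediate early gene Myc (0.98 each). Ereg was most like Ipo7 (0.99), Rpl9 and Prkrip1 (0.97 each), Epgn most like Rhob (0.95), Rnf19b and Ddx50 (0.94 each), and Tgfa most like Cnnm4, Higd1a and Sqrdl (0.98 each). These likenesses are descriptions, and no test was made of them.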

How the data were processed

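Cecum RNA was labelled with Cy3 and hybridised to Agilent SurePrint G3 Mouse GE v2 8 × 60K arrays. The scanner files that the authors deposited hold a linear, background-subtracted intensity per spot from Feature Extraction, with no scaling between arrays. Log2 values deposited as a matrix had been scaled to the 75th percentile in GeneSpring by the authors and have a median of 0 in each row, and they served as an alternative. The files place probes on mm9, and no genome of that build was used here.

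From the intensities, log2 values minus each array's 75th percentile over 56605 non-control probes were computed. Control spots and spots marked as outliers (53 to 152 per array) were left out and spots of 1 probe averaged. limma 3.58.1 (R 4.3.3) estimated differences among 4 group means from all 12 arrays, and p-values were adjusted by Benjamini-Hochberg across all probes. For the arrays the methods give the thresholds without a test, and for comparisons in general they name a paired t-test and Dunnett's test. Where a probe failed the background test on any array of the dimmer group, only a lower bound on its fold is given. The bound was computed from the dimmest signal passing that test on each array. Precision is limited by 3 arrays per group, which the study calls biological triplicates. Arrays were also simulated with independent normal noise of each probe's real spread. At 3 h, 30 of 50 probes changed by 1.5 on the log2 scale were called among 56507 probes, and 38 of 50 changed by 2. Of those changed by 2.5 and by 3, 41 of 50 and 46 of 50 were called, and 9 unchanged probes were called. Far fewer probes were changed there than were called in the real arrays, so these rates need not hold for the real arrays.

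No pairing of the arrays by replicate number was seen, and the check is given with the limits. The members and all lists were chosen with earlier results of these data known, so no list stands as independent support. Named beside the 10 genes were up to 4 called genes of each pathway list with the largest change from sham, those called against the direction of most of their list, up to 3 genes of each marker list with the largest change, and the 3 genes most like each gene called against sham. The neighbours on chromosome 5, and genes named though not called (Erbb2, Adam17, Fgfr2, Nrg1, Nrg3), were added after values were seen. Alternatives were quantile normalization, another set of probes for the percentile, normexp, the authors' table, leaving out dim probes, keeping outlier spots, blocks for slide and replicate, other variance and sample choices, the methods' t-test, averaging every gene's probes, each array left out and, chosen after seeing the data, each slide alone.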

Additional observations from a re-analysis of the deposited data

Results flagged for a closer look

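The change from sham of 6 of the 10 genes differed between 12 h and 72 h by the test of that difference in limma, against 7.52% of all genes. With slide as a block 3 of them were called, when 3.3% of all genes were. Slide 2 alone holds a single 12 h array, too few for such a count. Hbegf was lower at 72 h than at 12 h by -1.48 on the log2 scale, Areg by -1.98, Tgfa by -1.42, Epgn by -1.77 and Met by -1.17, while Hgf was higher by 1.51. Between 3 h and 12 h the change from sham differed for 3 genes, against 3.46% of all genes, with Areg lower at 12 h by -1.61, Btc lower by -1.97 and Epgn higher by 1.09. With slide as a block, or within slide 1, 1 of these (Btc) was called, when 2.44% and 2.26% of all genes were. The Epgn values include arrays below background, as given above. All groups of 3 were too small for a test of single outlying arrays.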

How the results depend on the processing

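The 6 genes higher at 3 h and the 6 at 12 h were called under every alternative except the methods' t-test, normexp and averaging of probes. The normexp setting added an offset of 50 to each intensity, which shrinks log2 differences of dim probes. Calls of dim genes lost under it cannot be put down to background correction alone. The methods' t-test, paired by replicate number with 3 pairs, called 0 of the 10 genes in all 6 comparisons and 0 of the other pathway genes, with 0 or 1 of all probes passing, where at an unadjusted p under 0.05 and 2-fold it gave 5, 3 and 2 genes against sham at the successive times (5.97%, 7.67% and 7.09% of all genes), 2 at 12 h against 3 h (2.69%), 4 at 72 h against 12 h (5.12%) and 5 at 72 h against 3 h (8.25%). With every gene's probes averaged, 5 and 4 were called at 3 h and 12 h, against 6.53% and 8.2% of all genes. The Tgfa differences there reversed to -0.12 and -0.38. Averaging also lost the calls of Btc at 12 h against 3 h (adjusted p = 0.191 in limma) and of Hgf at 72 h against 3 h (0.95). At 72 h against 12 h it lost those of Tgfa (-0.90) and Met (-0.92). With normexp, 5 and 4 were called at 3 h and 12 h. At 72 h against sham, normexp called 1 gene (Ereg) and 12 other pathway genes in place of 19, against 3.39% of all genes. At 72 h against 12 h it called 3, against 2.88% of all genes. Under it, Epgn at 72 h reversed to -0.20 and Met to 0.0214. With slide as a block, 1 gene (Ereg) and 9 other pathway genes were called at 72 h against sham, against 3.11% of all genes. The block left 1 call at 12 h against 3 h (Btc), against 2.44% of all genes. It left 3 at 72 h against 12 h and 4 at 72 h against 3 h, against 3.3% and 3.11%. The median standard error at 72 h against sham grew 1.735-fold under the block. Areg at 72 h reversed to 0.77, Met to 0.0571 and Ereg at 72 h against 12 h to 0.0367. Within slide 1, 1 was called at 12 h against 3 h (Btc), when 2.26% of all genes were. Within slide 2, with its single 12 h array, Ereg at 72 h against 12 h was again at 0.0367. A fit of only the groups compared called 1 at 12 h against 3 h, against 2.31% of all genes, and lost Hgf at 72 h against 12 h. Leaving out each array in turn gave 6 genes at 3 h, 6 at 12 h, 1 to 2 at 72 h, 1 to 3 at 12 h against 3 h, 5 to 7 at 72 h against 12 h and 6 to 7 at 72 h against 3 h, and reversed the 72 h differences from sham of Areg (range -0.39 to 0.16), Met (-0.14 to 0.13) and Fgf7 (-0.14 to 0.66). The causes were not tested.

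Deviations of same-numbered arrays from their group means correlated between -0.162 and 0.0866 over 18 pairs. Those of differently numbered arrays correlated between -0.112 and 0.140 over 36 pairs. No pairing by number was seen, though with 3 arrays per group the check could miss a weak one. A fit with the replicate block called 1 gene at 12 h against 3 h (Btc, with Areg at adjusted p = 0.0542 and Epgn at 0.072 in limma), added Hgf at 72 h against sham (adjusted p = 0.0459) and changed no other call of the 10 genes. Of single differences, 88 values lost their call, 5 gained one and 13 reversed, none of the reversed ones called as reported.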
